A study of Mus musculus with 7 samples.

Results

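The interferon regulatory factor (Irf) genes were examined for genomic occupancy by Runx3 and for the enhancer-enriched histone mark H3K4me1 in resting CD8+ T cells (CD8-TC) of mouse spleen. The 8 genes were *Irf1*, *Irf2*, *Irf3*, *Irf4*, *Irf5*, *Irf7*, *Irf8* and *Irf9*. A called region was counted at a gene when its midpoint lay in the gene body or within 20 kb of either end, with gene positions taken from the GENCODE annotation of NCBIM37, the same build as mm9. By this rule 3 of the 4934 Runx3-bound regions and 92 of the 76705 H3K4me1-marked regions were found at the 8 genes.

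All libraries came from freshly isolated splenic CD8-TC of wild-type ICR mice, collected from 18 mice, and no treatment or mutant allele was part of the groups. Chromatin immunoprecipitation followed by sequencing (ChIP-seq) gave 7 libraries, of which 3 from 2 repeats were made with an in-house polyclonal antibody to Runx3, 2 with a monoclonal antibody to H3K4me1 and 2 with non-immune rabbit serum (NIS) as the control. The mouse age was not given in the sources used here. Cells were positively selected on anti-CD8 beads to a purity of about 95%. By such selection other cells carrying CD8, such as a subset of dendritic cells, could also be captured. Peaks had been called once per antibody on the joined repeats against the joined NIS libraries, and each deposited list holds positions only. There is therefore no replicate value, error or peak height for any region below, the depth behind a region is unknown, and sites that fell just under the calling threshold look the same as unoccupied ones.

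Irf proteins are transcription factors with a shared DNA-binding domain that recognises GAAA-rich interferon response elements. Irf3 and Irf7 are activated downstream of sensors of viral nucleic acid and switch on the genes of type I interferons, and Irf9 joins Stat proteins in the complex that carries the interferon signal from the receptor to the nucleus. In T lymphocytes Irf1 and Irf4 are known for roles in the development, activation and differentiation of CD8-TC, while Irf8 and Irf5 are best known from myeloid and B cells. Runx3 belongs to the RUNX family, which binds the motif TG(T/C)GG(T/C) and is required for the maturation of CD8-TC.

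Runx3 was called at 2 of the 8 genes, *Irf9* with 2 regions and *Irf1* with 1 region. The sequences around the RUNX motifs of these regions are shown because they are the only places in the windows of the 8 genes where Runx3 occupancy was called. They are read 5′ to 3′ on the plus strand of NCBIM37, with each RUNX motif in capitals, and a motif on the minus strand appears as its reverse complement (for example, TGTGGT reads as ACCACA). The first is the central 200 bp of the region downstream of *Irf1*, chr11:53608458-53608657. The second is the central 200 bp of the region upstream of *Irf9*, chr14:56204399-56204598. The third is a site of 30 bases, chr14:56222866-56222895, near the midpoint of the region at the *Irf9* 5′ end, and the fourth is a window of 200 bp, chr14:56223087-56223286, further along the same region.
Irf1 downstream: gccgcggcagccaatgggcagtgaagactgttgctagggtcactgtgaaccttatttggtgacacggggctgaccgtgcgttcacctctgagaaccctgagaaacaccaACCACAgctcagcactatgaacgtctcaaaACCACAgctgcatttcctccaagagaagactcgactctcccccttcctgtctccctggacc
Irf9 upstream: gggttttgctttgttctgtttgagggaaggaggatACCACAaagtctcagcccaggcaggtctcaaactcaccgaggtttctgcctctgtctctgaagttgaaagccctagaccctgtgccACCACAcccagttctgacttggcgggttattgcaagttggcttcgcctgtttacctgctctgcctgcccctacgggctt
Irf9 5′ end, midpoint: gagtctcacagaGCCACAggcccaaggtgc
Irf9 5′ end, downstream motifs: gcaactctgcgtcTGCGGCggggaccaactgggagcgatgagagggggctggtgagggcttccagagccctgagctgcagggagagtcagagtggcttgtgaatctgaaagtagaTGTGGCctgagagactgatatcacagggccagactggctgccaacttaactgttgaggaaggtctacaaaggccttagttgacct

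The Runx3-bound region at the *Irf9* 5′ end spanned 957 bp at chr14:56222409-56223365. Its midpoint lay 479 bp downstream of the annotated start of *Irf9* (ENSMUSG00000002325.8, plus strand, chr14:56222408-56228867), in an annotated UTR and 65 bp from the nearest *Irf9* transcription start site (TSS). The GENCODE gene start used here lies upstream of the RefSeq starts of *Irf9*, and the distance of 479 bp and its rank below rest on it. It held 3 RUNX motifs, TGTGGC at -6 bp from the midpoint, TGCGGC at 216 bp and TGTGGC at 318 bp. Of the 6 annotated *Irf9* TSSs, 1 fell inside it. The region overlapped 2 H3K4me1-marked regions, which together covered 80.8% of its length. It was the single Runx3-bound region that lay in the body of an Irf gene.

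The other region counted at *Irf9* spanned 788 bp at chr14:56204106-56204893. Its midpoint lay at -17909 bp from the annotated *Irf9* start (upstream), in intergenic sequence, but 360 bp from the TSS of *Fam158a*, a close neighbour. All 3 of its RUNX motifs were TGTGGT, at -62, 24 and 233 bp from the midpoint. It lay wholly within an H3K4me1-marked region of 2261 bp, chr14:56204046-56206306. By position it was nearer to *Fam158a* than to *Irf9*, and the lists hold nothing that assigns it to either gene.

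The region counted at *Irf1* spanned 856 bp at chr11:53608131-53608986, with its midpoint 25042 bp downstream of the annotated 5′ end of *Irf1* (ENSMUSG00000018899.9, plus strand, chr11:53583516-53591876). It lay in an intron of the gene model *Gm12216*, 819 bp from the TSS of that model and 2180 bp from the nearest protein-coding TSS, that of *Gm11006*. Its 3 RUNX motifs were TGCGGT at -175 bp and TGTGGT at 12 and 42 bp from the midpoint. It was covered over its full length by an H3K4me1-marked region of 5547 bp, chr11:53606044-53611590. Thus, of the 3 regions, the one at the *Irf9* 5′ end was the only one whose nearest protein-coding TSS belonged to an Irf gene.

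**Figure D1:**
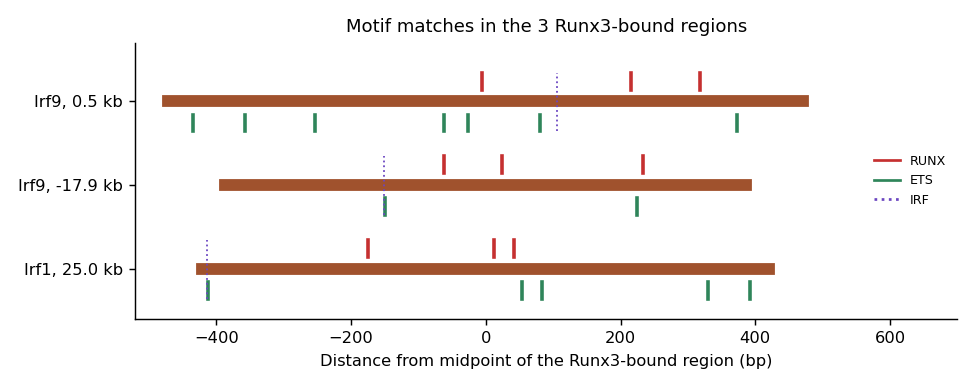
Motif matches in the 3 Runx3-bound regions at *Irf9* and *Irf1*, plotted by distance from the midpoint of each region in bp. Bars are the called regions, labelled with the distance of the midpoint from the annotated 5′ end of the gene, red ticks are RUNX, green ticks ETS and dotted lines IRF matches. Each region holds 3 RUNX matches and 1 IRF match.

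All 3 regions overlapped H3K4me1 and all 3 held a RUNX motif in the 200 bp around the midpoint (exact Clopper-Pearson 95% interval for 3 of 3, 29.2 to 100%, counting error only). In the whole Runx3 list 78.8% of regions overlapped H3K4me1 and 66.0% held a RUNX motif in those 200 bp. The midpoints of all 3 lay less than 1 kb from an annotated TSS of some gene, against 20.7% of the whole list. None of the 3 lay more than 5 kb from a TSS (interval 0 to 70.8%), against 63.9% of the list. With 3 regions, these intervals are wide. The rule admits only regions in a gene body or within 20 kb of it, and the whole list has no such limit. The contrasts in distance to a TSS therefore follow in part from the rule. The ETS core (A/C)GGAA(A/G) occurred 7 times in the region at the *Irf9* 5′ end, 5 times in the *Irf1* region and 2 times in the upstream *Irf9* region, and in 95.0% of all Runx3-bound regions. The interferon response core AANNGAAA occurred 1 time in each of the 3, and in 68.4% of the list. In the *Irf1* region and the upstream *Irf9* region this match was AAAGGAAA and overlapped an ETS match. All motifs were searched on both strands, and a match is a sequence feature and not an occupied site.

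Background for these counts came from the same window around all protein-coding genes. Of 22350 such genes, 19.8% had at least 1 Runx3-bound region in the body or within 20 kb, beside 2 of the 8 Irf genes. Among genes whose window was of similar length to that of *Irf9* (at least 0.8 times as long, and at most the inverse of this) the share was 15.0%, and for *Irf1* 15.2%. The count at the Irf genes was thus near the background, and it is given as a description.

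The other 6 genes had no Runx3-bound region in their windows, and their nearest Runx3-bound regions lay at very different distances. For *Irf7*, the nearest midpoint was 36463 bp upstream of the annotated 5′ end, in an intron of *Deaf1* (chr7:148488407-148489279). For *Irf4* it was 67202 bp upstream, inside *Dusp22* (chr13:30773451-30774335). For *Irf3* it was 85168 bp downstream, in an intergenic region of 1437 bp with 8 RUNX motifs whose nearest protein-coding TSS was that of *Rcn3* (chr7:52337468-52338904). The distances for these 3 genes were shorter than the median of 148596 bp over all protein-coding genes.

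*Irf5*, *Irf2* and *Irf8* lay farther from Runx3, *Irf5* still below the median of 148596 bp and *Irf2* and *Irf8* above it. The nearest midpoint was 110866 bp upstream of *Irf5*, inside *Ccdc136* (chr6:29365315-29366203). It was 180356 bp downstream of the *Irf2* 5′ end, in intergenic sequence (chr8:48005043-48005867), beyond the 3′ end of the gene. For *Irf8*, it was 905469 bp upstream, inside *Cotl1* (chr8:122354450-122355128). Of all protein-coding genes, 92.2% had a nearer Runx3-bound region than *Irf8*, whereas 3.12% had a nearer one than *Irf9*. The nearest region of each of the 8 genes overlapped H3K4me1 and held 2 to 8 RUNX motifs.

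**Figure D2:**
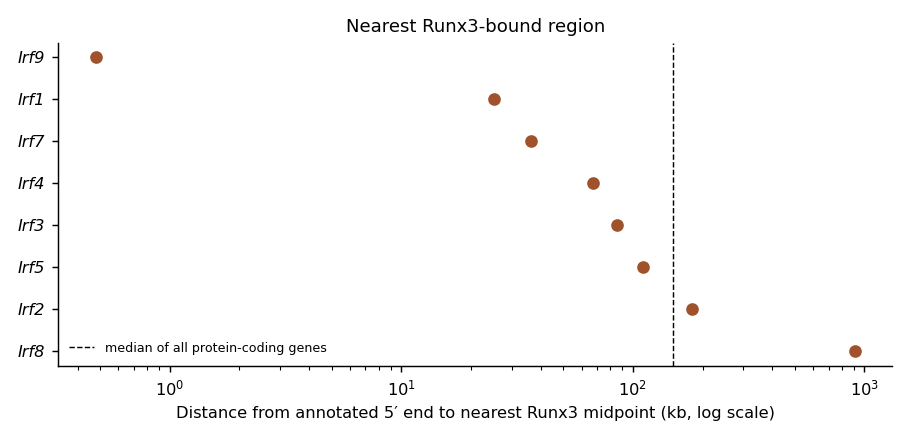
Distance in kb (log scale) from the annotated 5′ end of each Irf gene to the midpoint of the nearest Runx3-bound region. Each point is 1 gene and the dashed line is the median of 22350 protein-coding genes, 148596 bp. *Irf9* is the nearest at 479 bp, and *Irf2* and *Irf8* lie beyond the median.

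H3K4me1 was widespread at the Irf genes. All 8 had H3K4me1-marked regions, 5 to 27 per gene with a median of 10.5, where 73.6% of protein-coding genes had at least 1 and the median was 4. The marked share of the window was 17.2% at *Irf7* to 66.2% at *Irf8*, with a median of 39.8% over the 8 genes. Over all protein-coding genes the median was 5.75% and the middle 50% of genes lay between 0 and 14.3%, below the value of every Irf gene. Inside the gene bodies the median share was 66.5% for the 8 genes and 4.13% for all genes. In the 20 kb flanks the medians were 27.4% and 4.78%. The marked share of the body was above that of the flanks at each of the 8 genes. The genes were not drawn at random and neighbouring regions share fragments, so that these contrasts are given without a test.

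**Figure D3:**
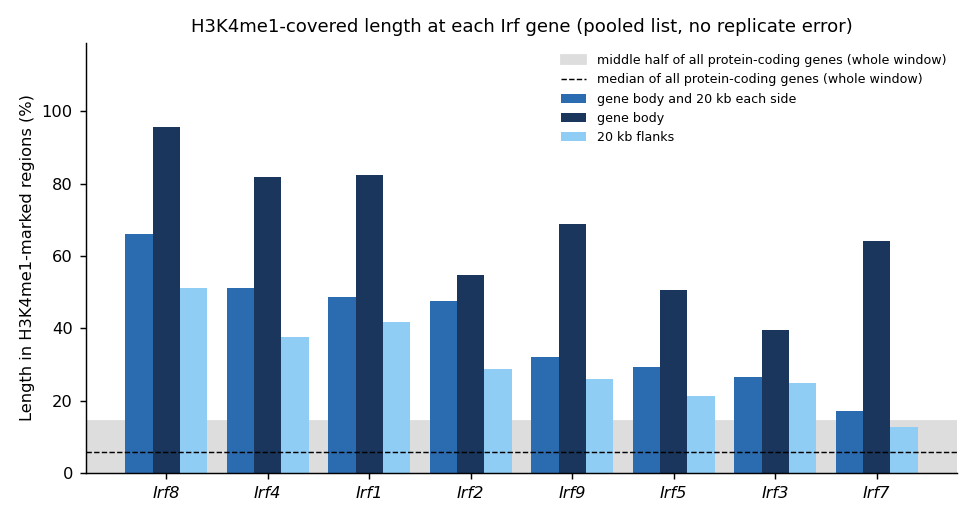
Share of length in H3K4me1-marked regions (%) at each Irf gene, for the gene body with 20 kb on each side, the gene body alone and the 20 kb flanks. The grey band and dashed line are the middle 50% and the median of all protein-coding genes for the whole window. *Irf8* has the highest bars (66.2, 95.7 and 51.2%), and the whole-window bar of *Irf7* at 17.2% is the lowest.

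*Irf8*, whose product is required for the development of several myeloid and dendritic cell types, had the highest marked share. H3K4me1 covered 66.2% of its window and 95.7% of its body (chr8:123260258-123280594, plus strand), and 99.8% of protein-coding genes had a lower window share. From 1066 to 30704 bp downstream of the 5′ end, 4 regions of 5 kb or more (7382, 9091, 6722 and 6239 bp) followed each other with short gaps, the largest of which appears as the white line in the plot of called regions. The last of these lay past the 3′ end in intergenic sequence. All 11 regions counted at *Irf8* had *Irf8* as the gene of the nearest protein-coding TSS. No Runx3-bound region was called among them.

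**Figure D4:**
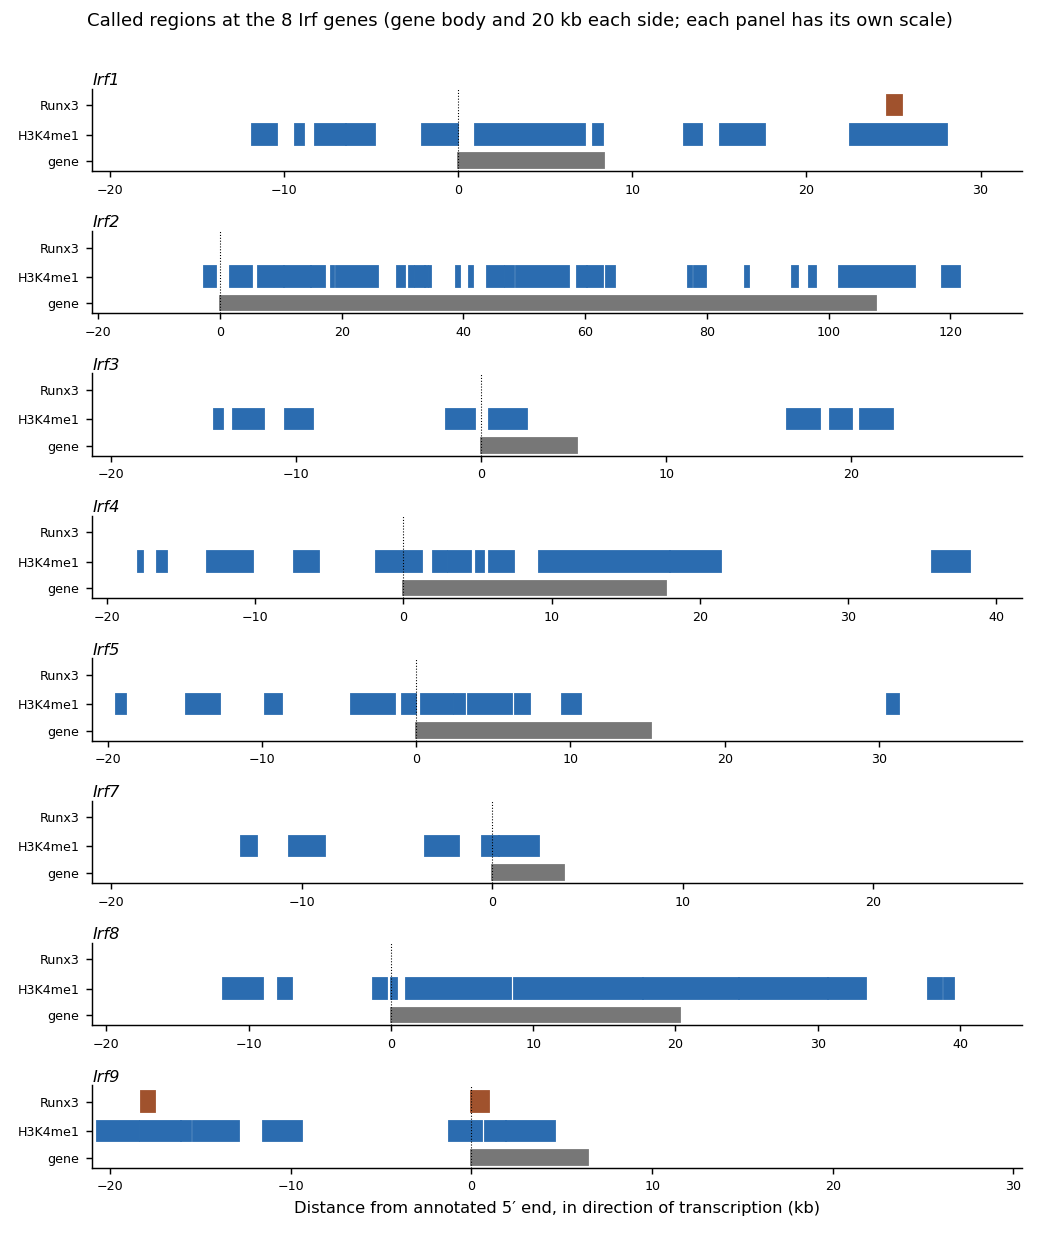
Called regions in the windows of the 8 Irf genes by distance from the annotated 5′ end in kb, in the direction of transcription and with a scale per panel. Brown boxes are Runx3-bound regions, blue boxes H3K4me1-marked regions and grey boxes gene bodies. Runx3 appears at *Irf1* (25042 bp) and *Irf9* (-17909 and 479 bp), while H3K4me1 appears at each gene.

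*Irf4*, which is induced by antigen receptor signalling and sustains the expansion of CD8-TC, came second by window share, with 51.2% of its window and 81.7% of its body (chr13:30841095-30858796, plus strand) in 12 regions. The widest of these spanned 8806 bp, from 9156 to 17961 bp downstream of the 5′ end, which takes in the 3′ part of the gene (chr13:30850251-30859056). Its annotated TSS was itself marked. The nearest protein-coding TSS of all 12 regions was that of *Irf4*.

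At *Irf1*, an activator induced by interferon gamma and needed for normal CD8-TC development, 48.7% of the window and 82.5% of the body were marked, in 10 regions. A region of 6295 bp covered the gene from 979 to 7273 bp downstream of the 5′ end (chr11:53584495-53590789). The region of 5547 bp that contained the Runx3-bound region was the other one above 5 kb. At *Irf2*, which is known as an antagonist of Irf1 at shared sites, 47.6% of a window of 147714 bp and 54.6% of the body were marked in 27 regions, 24 of which lay in its introns (gene body chr8:47825099-47932812, plus strand). Its widest region, 12471 bp at chr8:47926753-47939223, crossed the 3′ end of the gene and ranked 153rd in width of the 76705 regions. No Runx3-bound region was called across the 107714 bp of the *Irf2* gene. The window shares of *Irf4*, *Irf1* and *Irf2* were close to each other, and no error is available to order them.

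The 4 remaining genes had lower shares of the window, and no region of 5 kb or more. *Irf9* had 32.0% of its window and 69.0% of its body marked, in 8 regions, and its body share, like that of *Irf7*, was above that of *Irf2*. *Irf5*, which acts downstream of Toll-like receptors, had 29.4% and 50.7% in 11 regions (chr6:29476625-29491869, plus strand). *Irf3* had 26.6% and 39.5% in 8 regions (chr7:52253018-52258218, plus strand), and *Irf7* had 17.2% and 64.0% in 5 regions (chr7:148448605-148452380, minus strand). The small genes *Irf3*, *Irf7* and *Irf9* lie close to other genes, so that much of what was counted belongs to shared intervals. The nearest protein-coding TSS was that of the Irf gene for 1 of 8 regions at *Irf3*, 3 of 8 at *Irf9*, 3 of 5 at *Irf7*, 5 of 10 at *Irf1* and 8 of 11 at *Irf5*. The other regions at *Irf3* were nearest to *Prmt1*, *Bcl2l12*, *Scaf1* or *Rras*, and those at *Irf9* to *Fam158a*, *Psme2* or *Rnf31*.

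The positions of the 92 regions were summarised next. Of these, 43 had their midpoint in the body of the Irf gene (34 in introns and 9 in exons), 19 in another gene and 30 in intergenic sequence. By distance to any annotated TSS, 31 lay under 1 kb and 46 above 5 kb. Their median width was 1710 bp, and the whole H3K4me1 list had a median of 979 bp. Regions of 5 kb or more made up 10 of the 92, against 2.78% of the list, and all 10 were at *Irf2*, *Irf8*, *Irf1* and *Irf4*. Of the 92, 4 (4.35%) overlapped a Runx3-bound region, 3 at *Irf9* and 1 at *Irf1*, beside 5.49% of the whole H3K4me1 list.

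The annotated 5′ ends differed among the members. It lay inside an H3K4me1-marked region at 5 of the 8 genes (*Irf4*, *Irf5*, *Irf7*, *Irf8* and *Irf9*), beside 17.7% of all protein-coding genes. At the other 3 genes the 5′ end lay in an unmarked gap between marked regions. The gap was 980 bp at *Irf1*, where the mark ended 2 bp upstream and resumed 979 bp downstream. It was 782 bp at *Irf3*, with edges 325 bp upstream and 458 bp downstream. At *Irf2* it was wider, 2394 bp, with edges 665 bp upstream and 1730 bp downstream. Over all annotated TSSs, 32 of 53 of the Irf genes were marked, against 18.4% of the 70018 TSSs of all protein-coding genes. All annotated TSSs of *Irf7* (11), *Irf8* (7) and *Irf9* (6) were marked, whereas 1 of 11 was at *Irf1*.

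The mark was also read in bins of 2.5 kb. On average over the 8 genes, 64.5% of the bin just upstream of the 5′ end and 73.5% of the bin just downstream were marked, against 21.6% and 29.5% over all protein-coding genes. From 2.5 to 5 kb downstream the Irf mean was 70.1% and the mean of all genes 13.9%. In the last bin, up to 20 kb downstream, the values were 43.2% and 8.56%. From 5 to 2.5 kb upstream the Irf mean was 15.5% and the mean of all genes 7.89%, and 4 of the 8 genes (*Irf3*, *Irf4*, *Irf8* and *Irf9*) had no marked base in that bin. The means rest on unlike genes, since bins beyond 7.5 kb downstream were almost fully marked at *Irf8* and empty at *Irf7*.

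**Figure D5:**
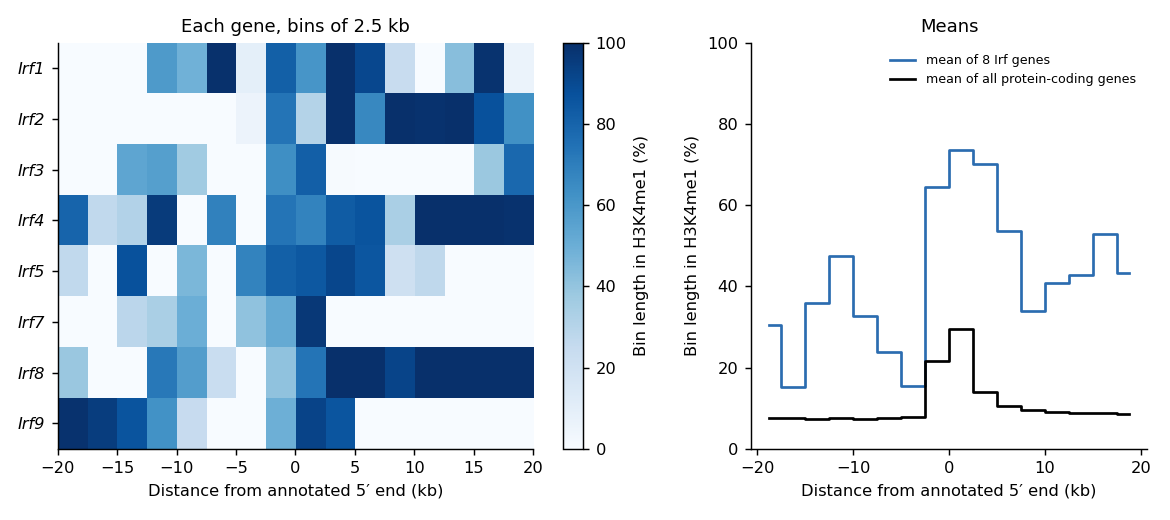
Share of each 2.5 kb bin in H3K4me1-marked regions (%) by distance from the annotated 5′ end in kb, for each Irf gene (colour scale, left) and as the mean of the 8 genes and of all protein-coding genes (lines, right). The Irf mean is highest from 0 to 2.5 kb at 73.5% and lowest from -17500 to -15000 bp at 15.1%.

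Motifs in the H3K4me1-marked regions were counted with the regions' greater width in mind. A RUNX motif was present in 83 of 92 regions (90.2%), against 81.5% of the whole list, and per kb of sequence the values were 2.07 and 1.94. The interferon response core was present in 75 of 92 (81.5%, list 71.5%), but per kb there were 1.33 matches at the Irf genes and 1.53 in the list. The gamma-activated sequence TTCNNNGAA (GAS), the site type of Stat dimers, was present in 45 of 92 (48.9%, list 32.7%), with 0.343 and 0.331 per kb. Per kb, the RUNX and GAS values were thus close to those of the list. The pooled value of the interferon response core was lower than in the list while its share of regions was higher. By gene, this core ranged from 0.664 per kb at *Irf7* to 1.66 at *Irf2*, and *Irf2* and *Irf4* (1.55) were above the list. Among the members, *Irf7* had 3.45 RUNX motifs per kb of marked sequence and *Irf5* 1.67, and the other 6 genes lay between 1.91 and 2.18.

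The 250 bases upstream of 11 RefSeq-annotated starts of the 8 genes were searched for the same motifs. The RefSeq promoter table is of GRCm38.p6, and each sequence was found once on NCBIM37 by an exact match, which gave the positions below. A RUNX motif was present in 5 of the 11 promoters, against 38.0% of 32851 RefSeq promoters in windows of the same length. A GAS was present in 3 (background 7.02%), the interferon response core in 1 (background 21.3%) and an ETS core in 6 (background 57.2%). The 5 promoters below, at *Irf1*, *Irf2*, *Irf5* and *Irf8*, carry GAS, RUNX or interferon response matches, lie outside annotated UTRs and overlap no Runx3-bound region. They are shown so that the matches can be read in place. All lie on the plus strand, and capitals mark RUNX, interferon response and GAS matches. They are *Irf1* chr11:53583266-53583515 (99.6% in H3K4me1), *Irf2* chr8:47824849-47825098 (0%), *Irf5* chr6:29476375-29476624 (100%), *Irf8* chr8:123260008-123260257 (6.8%) and a second *Irf8* promoter, chr8:123262289-123262538 (100%).
Irf1 promoter: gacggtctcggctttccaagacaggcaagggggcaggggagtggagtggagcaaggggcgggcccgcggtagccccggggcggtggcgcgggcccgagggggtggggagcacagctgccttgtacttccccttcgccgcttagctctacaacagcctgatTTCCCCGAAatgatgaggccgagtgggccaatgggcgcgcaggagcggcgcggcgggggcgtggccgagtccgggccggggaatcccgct
Irf2 promoter: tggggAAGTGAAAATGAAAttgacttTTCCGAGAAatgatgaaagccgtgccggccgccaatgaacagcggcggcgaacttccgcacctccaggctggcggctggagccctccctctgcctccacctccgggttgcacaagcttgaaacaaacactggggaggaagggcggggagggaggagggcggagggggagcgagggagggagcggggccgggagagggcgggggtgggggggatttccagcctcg
Irf5 promoter: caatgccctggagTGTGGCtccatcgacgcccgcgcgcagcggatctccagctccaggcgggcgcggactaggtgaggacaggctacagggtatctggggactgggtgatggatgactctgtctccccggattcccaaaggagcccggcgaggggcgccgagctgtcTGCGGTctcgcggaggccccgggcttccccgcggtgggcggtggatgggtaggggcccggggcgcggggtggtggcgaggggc
Irf8 promoter: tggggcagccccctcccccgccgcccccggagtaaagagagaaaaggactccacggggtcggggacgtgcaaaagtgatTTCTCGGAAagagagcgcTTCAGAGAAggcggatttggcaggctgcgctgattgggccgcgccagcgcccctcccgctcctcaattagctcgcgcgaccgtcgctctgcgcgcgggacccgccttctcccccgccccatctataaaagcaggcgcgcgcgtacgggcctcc
Irf8 second promoter: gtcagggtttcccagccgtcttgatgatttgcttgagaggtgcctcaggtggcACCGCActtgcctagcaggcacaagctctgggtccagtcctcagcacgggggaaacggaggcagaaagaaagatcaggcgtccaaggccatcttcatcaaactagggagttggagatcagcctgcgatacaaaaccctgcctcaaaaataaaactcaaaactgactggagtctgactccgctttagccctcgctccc

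In these promoters, *Irf1* held the GAS TTCCCCGAA at -90 bp from the start. *Irf2* held 2 interferon response matches that overlap each other by 2 bases (at -245 and -239 bp) and a GAS at -224 bp, and none of its 250 bases was marked by H3K4me1. *Irf5* held TGTGGC at -237 bp and TGCGGT at -83 bp and was wholly marked by H3K4me1, yet carried no Runx3-bound region. The first *Irf8* promoter held 2 GAS matches at -171 and -153 bp, and the second held TGCGGT at -197 bp and was wholly marked. The promoters of *Irf3* (TGTGGC at -231 bp and TGCGGT at -37 bp, 0% in H3K4me1) and *Irf7* (TGTGGC at -72 bp, 100%) also held RUNX motifs with no Runx3-bound region. Thus RUNX letters were present at promoters with and without a Runx3 call, and absent from the first RefSeq promoter of *Irf9*, which overlapped the Runx3-bound region there.

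Genes around the Irf proteins were taken from a list of 61 genes, 60 of which were matched to the annotation (*Nlrc5* was not). Of the 60, 23 had a Runx3-bound region (38.3%), beside 19.8% of all protein-coding genes. Among interferon receptors, their kinases and Stat genes it was 9 of 11, with 5 regions at *Jak1*, a kinase of the interferon receptors, and 2 at each of *Ifnar1*, *Ifngr1* and *Il10rb*. Among DNA-binding partners of Irf proteins it was 8 of 11, led by *Ets1* with 4 regions and *Ikzf1* with 3. Among sensors and adaptors it was 3 of 11, led by *Tlr9* with 2 and followed by *Myd88* and *Ticam1* with 1 each. Among interferon-induced genes it was 2 of 23, *Psmb8* and *Tap1*, which encode parts of the immunoproteasome and of the peptide transporter. A region between neighbouring genes was counted at each of them. The windows of *Jak1*, *Ets1* and *Ikzf1* were long (152916, 161600 and 127924 bp), and a longer window can hold more regions. The median window was 62277 bp in the receptor group and 62419 bp in the partner group, against 55427 bp over all protein-coding genes.

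The median H3K4me1-marked share of the window was 30.8% in the receptor group, 23.9% in the partner group, 17.6% in the interferon-induced group and 15.3% in the sensor group, against 39.8% for the 8 Irf genes. The Stat family includes the signalling partners of Irf9. Runx3-bound regions were found at 5 of 7 Stat genes, 12 in all with 6 at *Stat4*, beside 2 of 8 Irf genes with 3 regions. The H3K4me1-marked share of the window was 15.0 to 35.4% at the Stat genes, with a median of 21.4%, and overlapped the range of the Irf genes, 17.2 to 66.2%. The windows of the Stat genes were longer (median 82423 bp, against 51803 bp), and the background share of genes with a Runx3-bound region was 14.4% among genes with windows like that of *Irf7* and 28.5% among genes with windows like that of *Irf2*, the longest. The difference between the families was not tested.

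The labelled cell type was read at marker loci. The windows of *Cd8a*, *Cd8b1*, *Cd3e*, *Cd3d* and *Cd3g*, which mark T cells, had 29.4 to 50.4% of their length in H3K4me1. Loci that mark other cells were marked as well. The shares were 19.2% at *Pax5* and 41.2% at *Cd79a* (B cells), and 26.9% at *Itgax*, 16.4% at *Zbtb46* and 9.40% at *Csf1r* (dendritic and myeloid cells). Of Runx3-bound regions, 2 each were listed at *Cd79a* and *Itgax*, 1 each at *Pax5* and *Zbtb46*, and 0 at *Csf1r*. These values stand beside those of *Irf8*, *Irf5* and *Irf4*, genes that B and myeloid cells also use. The part of other cells in the mark and in Runx3 occupancy at these genes was not tested.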

How the data were processed

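ChIP-seq of Runx3 and H3K4me1 was conducted with NIS as control on splenic CD8-TC, with chromatin sheared to about 300 bp and reads of 40 to 42 bp. The authors aligned reads to mm9 with ELAND (CASAVA 1.6 and 1.7 per the submitters' processing notes), kept uniquely aligned reads, joined the 2 repeats and called peaks with MACS after scaling the larger data set to the smaller. The deposited lists hold a chromosome, start, end and name per region on chromosomes 1 to 19 and X, with no score or count, so the depth of a region is unknown.

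Starts were moved by 1 bp, on the reading that they are counted from 0, and positions were joined to the NCBIM37 sequence and the GENCODE vM1 annotation. Overlap meant at least 1 shared bp. Shares have Clopper-Pearson 95% intervals, which cover counting error only. No test between groups was possible with 1 joined list per antibody. Values are set beside the same measure over 22350 protein-coding genes or the whole list. All 8 genes are named, along with genes whose TSS is nearest to their Runx3-bound regions and the genes with most Runx3-bound regions per group of the pathway list; the other nearest genes were named after their values were seen. Members and lists were chosen with earlier results of these data known. A gene model of several Mb spanning *Irf8* was skipped when regions were placed in genes. Some genes of the pathway and marker lists are not reported here. Other windows, overlap rules and TSS sets were tried as alternatives. Region counting and motif search were tested on simulated data. Software was Python 3.11.15, numpy 2.4.6, scipy 1.17.1 and matplotlib 3.10.9.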

Additional observations from a re-analysis of the deposited data

How the results depend on the processing

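The count of Runx3-bound regions at the Irf genes fell from 3 to 1 with the gene body alone and to 1 with 5 kb flanks, which leaves the region at the *Irf9* 5′ end, and was 4 with 50 kb flanks, where *Irf7* is added. The genes with such a region went from 2 to 1, 1 and 3. Over all protein-coding genes the share went from 19.8% to 8.52% (gene body), 13.0% (5 kb) and 30.8% (50 kb), so the background moved with the window as well. The H3K4me1-marked regions went from 92 to 43 (gene body), 56 (5 kb) and 152 (50 kb), and to 45 when neighbours within 1000 bp were merged. Counting any base in the window gave 3 and 94. Overlap with H3K4me1 and the presence of a RUNX motif remained at 100%, and the share above 5 kb from a TSS at 0%, under each of their alternatives. No paired analysis was possible because the lists were called on joined repeats, and leaving out a repeat would need the reads.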
